A study of Mus musculus with 11 samples.

Results

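The 9 genes described here belong to the Notch pathway: the receptors Notch1, Notch2, Notch3 and Notch4, the ligands Jag1 and Jag2, the DNA-binding factor Rbpj, and the target genes Hes1 and Nrarp. They were chosen by symbol, as the rows of the deposited gene table that carry these names, and they are 9 of 54347 genes in it. RNA was sequenced from 3 populations of mouse bone marrow cells: long-term haematopoietic stem cells (LT-HSC) with the sialomucin endomucin on their surface (EMCN+, 4 libraries), LT-HSC without it (EMCN-, 3 libraries), and granulocyte-monocyte progenitors (GMP, 4 libraries), a more differentiated population sorted for comparison. All cells came from female C57BL/6NTac mice with no other treatment or allele named in the labels; their age is not given in the sources used here. Marrow was depleted of lineage-positive cells before sorting, and the LT-HSC were lineage-negative, Sca-1+, c-Kit+, CD150+ and CD48- cells, with 3000 to 5000 cells per RNA preparation. Each mouse gave 1 library of each population, except that mouse 3 has no EMCN- library here, because the submitters took 1 library of that group out for its quality.

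Notch receptors are single-pass membrane proteins that are cut after they bind a Delta or Jagged ligand on a neighbouring cell. The freed intracellular domain enters the nucleus, joins RBPJ and Mastermind co-activators on DNA, and turns on targets such as the HES and HEY repressors and NRARP, a small protein that feeds back on the same complex. Without the intracellular domain, RBPJ sits with co-repressors. In the blood system the pathway is best known for forming the first stem cells in the embryo and for steering progenitors towards T cells, while Jagged and Delta ligands are made by endothelial and stromal cells of the marrow. Transcript levels do not report cleavage of a receptor, so the values below are on the abundance of the components.

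Libraries held between 3629234 and 11141483 estimated counts, and 14915 genes passed the filter on low counts. A gene could pass through the libraries of 1 group alone. Its call against a group with few or no counts was then partly set by the filter. Levels are given in CPM, the usual read count scaled to library size, here after TMM scaling, on which 1 count was worth 0.0697 to 0.235 CPM depending on the library. Differences are log2 fold changes ± SE from edgeR's quasi-likelihood test over all 11 libraries, a value of 1 standing for a 2-fold difference, and a gene is called at a Benjamini-Hochberg adjusted p under 0.05. Of all genes tested, 1.96% (293 genes) were called between EMCN+ and EMCN- LT-HSC, 61.3% between EMCN+ LT-HSC and GMP, and 52.7% between EMCN- LT-HSC and GMP. With the mouse as a replicate block in the 3 complete pairs, 908 genes were called between the LT-HSC groups; in the fit without a block the count became 105 or 184 when replicate 2 or 4 of the EMCN+ group was dropped, and 55, 194 or 191 when replicate 1, 2 or 4 of the EMCN- group was. Scaling to plain totals instead of TMM would add 0.11, 0.83 and 0.72 to the log2 difference of the median gene in the 3 comparisons, and would raise the share of calls that are higher in the first group from 39.2% to 76.3%, from 52.0% to 82.7% and from 53.7% to 84.8%. Differences from GMP are therefore relative to the bulk of genes, as TMM sets it. Both contrasts with GMP share the same 4 GMP libraries.

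Identity markers separated LT-HSC from GMP. Summed over 12 genes of stem cell identity, levels were 1332 to 1562 CPM in EMCN+ LT-HSC, 928 to 1076 CPM in EMCN- LT-HSC and 30.1 to 33.8 CPM in GMP, and 12 genes of GMP identity summed to 95.8 to 98.0, 111 to 125 and 18343 to 21215 CPM. The transcript of the sorted protein, Emcn, was at 26.2 ± 1.37 CPM (SD, n = 4), 14.4 ± 1.76 CPM (n = 3) and 0.521 ± 0.611 CPM (n = 4). Markers of endothelial cells, which are known to carry Notch1, Jagged and Delta ligands, were highest in sum in EMCN+ LT-HSC, though single markers went both ways: 16 of 16 had counts in EMCN+ LT-HSC, 12 of 16 in EMCN- LT-HSC and 10 of 16 in GMP, with sums of 124 to 139, 90.4 to 105 and 68.9 to 83.9 CPM. Emcn itself is on that list. Cdh5, the endothelial cadherin, had 10, 8, 8 and 4 counts in the EMCN+ libraries, 2, 0 and 1 in the EMCN- libraries and 0 in GMP. Cldn5, an endothelial tight junction protein, had 7, 16, 10 and 12 counts in the EMCN+ libraries and 0 elsewhere, and Sox17, a factor of arterial endothelium, had 3 counts in 1 EMCN+ library and 0 in the other libraries. Other markers of the list had the opposite order: Pecam1 was at 46.0, 48.2 and 61.0 CPM in the mean of EMCN+, EMCN- and GMP libraries, Flt1 at 0.435, 0.496 and 9.13 CPM, and Plvap at 0.181, 0.506 and 1.03 CPM. Against GMP, 6 of the 10 tested were called higher and 2 lower (Pecam1 and Flt1) in EMCN+ LT-HSC. In EMCN- LT-HSC 5 were higher and the same 2 lower. Of all genes tested, 61.3% and 52.7% were called in these contrasts. On plain totals 8 and 7 were higher and 1 was lower, and leaving out 1 library left 1 or 2 lower in EMCN- LT-HSC. Over the 10 endothelial markers tested, the median log2 difference between the LT-HSC groups was 0.66, and the smallest edgeR adjusted p was 0.11, that of Emcn, which was called in 7 of 20 alternative settings. Markers of other lineages also differed between the LT-HSC groups, where 0.771% of all genes tested were called higher and 1.19% lower in EMCN+ cells. Cd48, whose protein the gate excludes, was at 0.814 ± 0.340 CPM in EMCN+ (SD, n = 4) and 3.66 ± 1.63 CPM in EMCN- LT-HSC (n = 3). Its log2 difference was -2.26 (edgeR adjusted p = 0.00358), and Plac8, also of the GMP list, differed by -1.74 (edgeR adjusted p = 0.00158). Gstm1 of that list was called higher (0.47, edgeR adjusted p = 0.0463), a call kept in 9 of 20 settings. Differences were positive for 4 of the 12 GMP genes. For stem cell identity, 4 of 12 genes were called higher (Mllt3, Procr, Mecom and Fgd5) and 0 lower, and all 12 differences were positive. Leaving out 1 library left 1 to 5 of the 12 called higher. Of 7 megakaryocyte markers tested, 3 were lower in EMCN+ cells (Pf4, Itga2b and Plek, by -2.38, -1.53 and -1.32, edgeR adjusted p = 0.00237, 0.0101 and 0.0116) and Vwf was higher (1.38, edgeR adjusted p = 0.0168). The erythroid markers had 1 lower call of 9, Car1, at 0 counts in EMCN+ and 13 in EMCN- LT-HSC. Without EMCN- replicate 1 the calls of Cd48, Itga2b, Plek, Vwf and Car1 were lost. Cd48 was kept in 17 of 20 settings, the other losses being limma-voom and a fit of only the 2 LT-HSC groups. Plek was likewise kept in 17 of 20, failing in that fit and with the mouse as a replicate block in complete pairs. Itga2b was kept in 18 of 20, the second loss coming when EMCN+ replicate 2 was dropped. Vwf was kept in 16 of 20. Dropping EMCN- replicate 2, dropping EMCN- replicate 4 and the mouse block over all 11 libraries each removed it. Car1 was lost in 11 of 17 settings in all. Plac8 and Pf4 kept their calls in all 20. Erythroid markers summed to 14.6 to 25.3, 21.6 to 29.4 and 112 to 170 CPM in the 3 populations, stromal markers to 16.4 to 37.5, 18.6 to 25.8 and 17.5 to 28.9 CPM, and megakaryocyte markers to 344 to 443, 274 to 327 and 30.5 to 44.6 CPM. The part of any of these genes, or of the cells they mark, in the Notch results below was not tested.

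Between EMCN+ and EMCN- LT-HSC, 1 of the 8 members that passed the filter was called, Notch1, which was higher in EMCN+ cells; 1.96% of all genes tested were called, and 0.771% were called higher. The CPM values of the 2 groups did not overlap for 4 of the 8, with Notch1, Jag1 and Jag2 higher and Nrarp lower in EMCN+ cells, against 14.2% of all genes tested. Against GMP, 7 of 8 members were higher in EMCN+ LT-HSC (all but Hes1) and 0 were lower, where 31.9% of all genes were called higher. In EMCN- LT-HSC 4 of 8 were higher than in GMP (Notch2, Notch3, Jag2 and Nrarp) and 0 were lower, where 28.3% of all genes were called higher. Libraries of the EMCN- group and GMP did not overlap for those 4 genes, against 54.4% of all genes, and EMCN+ LT-HSC and GMP did not overlap for 6 of 8 (all but Notch3 and Hes1), against 57.3%. Notch4, whose mean was highest in GMP, did not pass the filter. Notch3, Jag1, Jag2 and Nrarp had at most 10 counts in any GMP library and passed the filter through LT-HSC libraries. Their higher calls against GMP were therefore partly set by the filter.

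**Figure D1:**
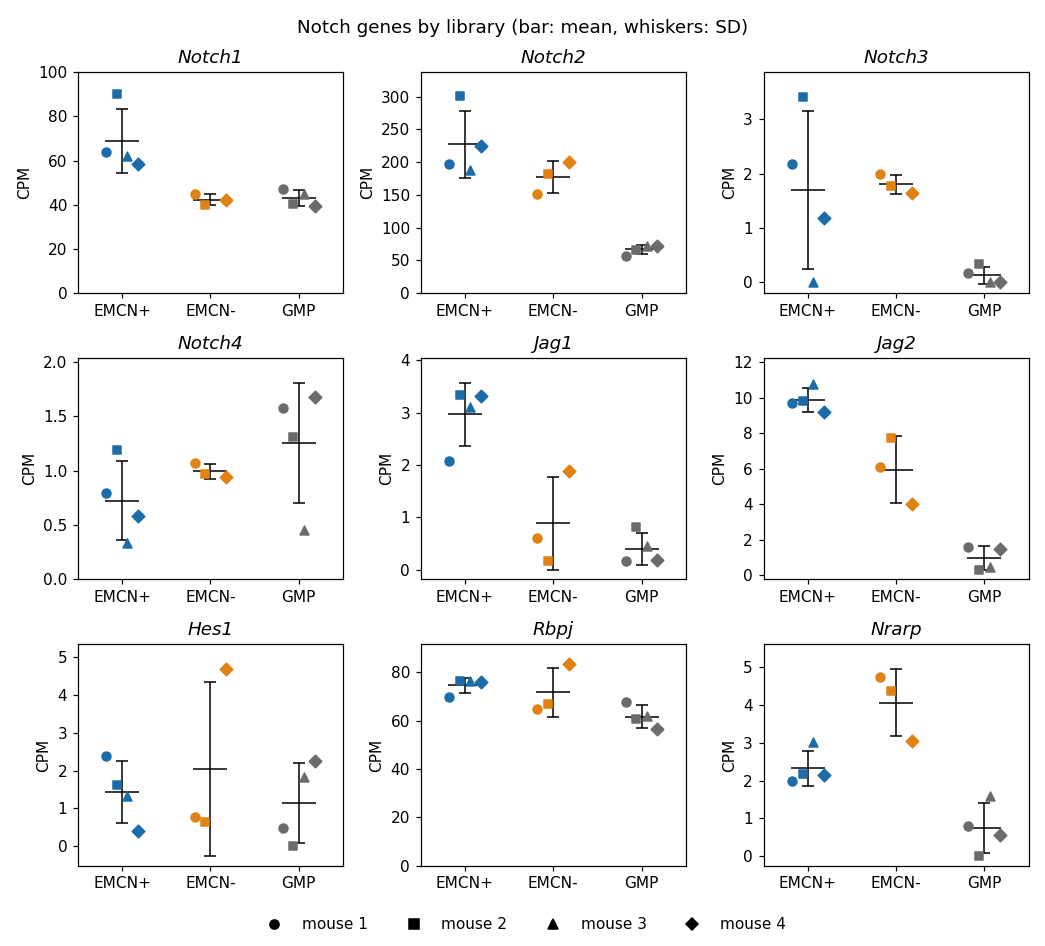
CPM of each of the 9 genes in every library, by population; the marker shape gives the mouse, the horizontal bar the group mean and the whiskers the SD. Notch2 and Jag2 sit far above GMP in all LT-HSC libraries, Notch1 stands apart in EMCN+ cells (58.6 to 90.2 CPM), and the vertical scales differ between panels.

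Notch1, the receptor that directs T cell fate, lies at chr2:26457903-26516663 on the minus strand (GENCODE M21, GRCm38; gene ENSMUSG00000026923.15). Its level was 63.8, 90.2, 62.3 and 58.6 CPM in EMCN+ replicates 1 to 4, 44.8, 39.9 and 42.1 CPM in EMCN- replicates 1, 2 and 4, and 47.3, 40.3, 45.1 and 39.4 CPM in GMP. On the other strand, 0610009E02Rik shares 1068 exon bases with Notch1 and had 0 to 6 counts per library. For Notch1, every EMCN+ library was above every other library, while EMCN- LT-HSC and GMP overlapped. Fewer cells of a type and less RNA per cell cannot be told apart in these bulk libraries. The level was 1.63-fold higher in EMCN+ than in EMCN- LT-HSC (log2 difference 0.71 ± 0.14, edgeR adjusted p = 0.0118), and it was higher in EMCN+ cells in 3 of 3 mice, by 0.48 to 1.17 on the log2 scale. Leaving out EMCN- replicate 1 or 2 took the edgeR adjusted p to 0.061 and 0.0627, the highest of 20 alternative settings, of which 18 kept the call; the lowest was 7.65e-05. Notch1 was also 1.60-fold higher in EMCN+ LT-HSC than in GMP (0.68 ± 0.13, edgeR adjusted p = 0.000127). Between EMCN- LT-HSC and GMP the difference was -0.03 ± 0.15 (edgeR adjusted p = 0.902), and on plain totals 0.70 (edgeR adjusted p = 0.000783), a shift close to that of the median gene; over the 20 settings the adjusted p ran from 0.000783 to 1.

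Notch2, at chr3:98013527-98150361 on the plus strand (ENSMUSG00000027878.11), encodes the receptor known in adult blood for marginal zone B cells and for stem cell recovery. Per length it was the most abundant of the 4 receptors in every population. Its level was 197, 301, 188 and 225 CPM in the EMCN+ libraries, 151, 182 and 200 CPM in the EMCN- libraries, and 57.4, 66.3, 72.4 and 71.5 CPM in GMP. All 7 LT-HSC libraries were above all 4 GMP libraries, and the 2 LT-HSC groups overlapped. Notch2 was 3.41-fold higher in EMCN+ LT-HSC than in GMP (1.77 ± 0.14, edgeR adjusted p = 2.98e-09) and 2.66-fold higher in EMCN- LT-HSC than in GMP (1.41 ± 0.15, edgeR adjusted p = 2.26e-07). Both calls held in all 20 alternative settings. EMCN+ and EMCN- LT-HSC differed by 0.36 ± 0.15, which did not pass the test (edgeR adjusted p = 0.269), although the EMCN+ library was higher in 3 of 3 mice, by 0.17 to 0.72. With the mouse as a replicate block in complete pairs the difference was 0.42 and passed (edgeR adjusted p = 0.0223), the 1 of 20 settings in which it did, over a range up to 0.678. A gene on the same strand, Gm42820, shares 541 exon bases with Notch2 and had 15 to 100 counts per library.

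The promoters of Notch1 and Notch2 are shown because these were the most abundant receptors and both were called higher in EMCN+ LT-HSC than in GMP. RefSeq windows of 250 bases before to 50 after the start (GRCm38.p6) were found for 8 of the 9 genes, with 2 windows for Rbpj; Hes1 is only named. Each window was searched on both strands for the GC box GGGCGG, which SP factors bind, the RBPJ core TGGGAA, the RUNX core TGTGGT, the GATA core AGATAA and the ETS core CCGGAA. The sequences below hold the 250 bases before the start, 5′ to 3′ in the direction of the gene, at chr2:26503823-26504072 (minus strand) for Notch1 and chr3:98013288-98013537 (plus strand) for Notch2, with GC boxes of either strand in capitals. The RefSeq start of Notch1 lies inside the longer GENCODE gene.
Notch1: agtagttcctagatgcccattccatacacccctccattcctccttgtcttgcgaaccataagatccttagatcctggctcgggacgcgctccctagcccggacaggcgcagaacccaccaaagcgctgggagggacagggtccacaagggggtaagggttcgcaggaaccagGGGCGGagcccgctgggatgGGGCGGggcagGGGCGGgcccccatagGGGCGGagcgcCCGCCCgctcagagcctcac
Notch2: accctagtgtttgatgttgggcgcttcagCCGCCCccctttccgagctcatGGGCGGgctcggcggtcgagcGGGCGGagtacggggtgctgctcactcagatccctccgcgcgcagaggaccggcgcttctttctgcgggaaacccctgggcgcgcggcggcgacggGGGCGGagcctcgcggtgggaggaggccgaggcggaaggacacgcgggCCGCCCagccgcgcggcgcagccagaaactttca
The whole windows of Notch1 and Notch2 held 5 and 7 GC boxes, and those of Notch3, Jag2 and Nrarp 4, 5 and 2. The second Rbpj window held 1, and the first Rbpj window and those of Notch4 and Jag1 held 0. The bases G and C made up 55.7% to 86.0% of these windows. A GC box was in 35.7% of all 32851 promoter windows of this length. RUNX, GATA and ETS cores were in 16.8%, 11.2% and 14.9% of all windows and in 0 of the 9 windows of these genes.

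Notch3 and Notch4, receptors best known in vascular smooth muscle and in endothelium respectively, were both rare. Notch3 (chr17:32120820-32166852, minus strand, ENSMUSG00000038146.8) was counted 22, 49, 0 and 6 times in the EMCN+ libraries, 13, 11 and 7 times in the EMCN- libraries and 1, 2, 0 and 0 times in GMP, or 2.18, 3.42, 0 and 1.17 CPM, 1.99, 1.78 and 1.64 CPM, and 0.158, 0.326, 0 and 0 CPM. EMCN+ replicate 3 had 0 counts at a depth where 3 counts would be 0.334 CPM, so the EMCN+ libraries spread more widely than the EMCN- libraries. Pooled, the 77 counts of EMCN+ LT-HSC against 3 in GMP gave a ratio of 14.8 (95% counting interval 4.88 to 73.4), and the 31 counts of EMCN- LT-HSC a ratio of 13.5 (4.22 to 69.1); the intervals cover counting error only. The fitted differences from GMP were 3.55 ± 1.04 (edgeR adjusted p = 0.00557) and 3.60 ± 1.10 (edgeR adjusted p = 0.00908), and limma-voom gave adjusted p = 0.152 and 0.0629. Between the LT-HSC groups Notch3 differed by -0.05 ± 0.82 (edgeR adjusted p = 0.987). An antisense gene, Gm17276, shares 488 exon bases with Notch3 and had 2 to 15 counts per library; whether counting used the strand is not given in the sources used here.

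Notch4 (chr17:34564268-34588503, plus strand, ENSMUSG00000015468.14) was counted 31 times over the EMCN+ libraries, 17 times over the EMCN- libraries and 29 times over GMP. Its level was 0.794, 1.19, 0.334 and 0.586 CPM in the EMCN+ libraries, 1.07, 0.969 and 0.940 CPM in the EMCN- libraries and 1.58, 1.31, 0.455 and 1.68 CPM in GMP. All 3 groups overlapped, and it was the 1 receptor whose mean was highest in GMP. Without the filter on low counts, which left 33124 genes, the differences were -0.39 ± 0.83 between the LT-HSC groups, -0.73 ± 0.76 between EMCN+ LT-HSC and GMP, and -0.34 ± 0.83 between EMCN- LT-HSC and GMP (edgeR adjusted p = 0.897, 0.516 and 0.924). Within mice, Notch4 was below GMP in 4 of 4 EMCN+ libraries, by 0.11 to 1.17 on the log2 scale, and in 3 of 3 EMCN- libraries, by 0.34 to 0.68; no fit with the mouse as a block was run for this gene.

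Levels of different genes compare only per length, here as CPM per kilobase of the longest annotated transcript. Notch2 stood at 21.7 ± 4.88 CPM per kb in EMCN+ LT-HSC (SD, n = 4), 16.9 ± 2.35 in EMCN- LT-HSC (n = 3) and 6.37 ± 0.654 in GMP (n = 4), and Notch1 at 7.24 ± 1.52, 4.45 ± 0.261 and 4.53 ± 0.401. Notch2 transcripts made up 74.1%, 77.6% and 57.3% of the 4 receptors on this scale. The ratio of Notch2 to Notch1 per kb was 2.73 to 3.47 in the EMCN+ libraries, 3.04 to 4.29 in the EMCN- libraries and 1.10 to 1.64 in GMP, so both LT-HSC groups were above GMP in every library and overlapped with each other. The log2 ratio differed by 1.09 between EMCN+ LT-HSC and GMP and by 1.43 between EMCN- LT-HSC and GMP, with two-sided exact permutation p = 0.02857 and 0.05714, the smallest these group sizes allow, or 0.0857 for both after adjustment over 3 comparisons. Between the LT-HSC groups it differed by -0.34 (exact permutation p = 0.1143, adjusted 0.114, smallest possible 0.0571). After adjustment none of the 3 comparisons could have passed at these group sizes, and with 4 libraries against 3 none could before it. The test therefore neither shows nor dismisses a difference in the ratio, between the LT-HSC groups or from GMP. Within mice 1, 2 and 4 the EMCN+ library exceeded the EMCN- library by 0.51, 1.17 and 0.48 for Notch1 and by 0.38, 0.72 and 0.17 for Notch2 on the log2 scale, larger for Notch1 in 3 of 3. The test of the ratio was chosen after the values were seen.

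**Figure D2:**
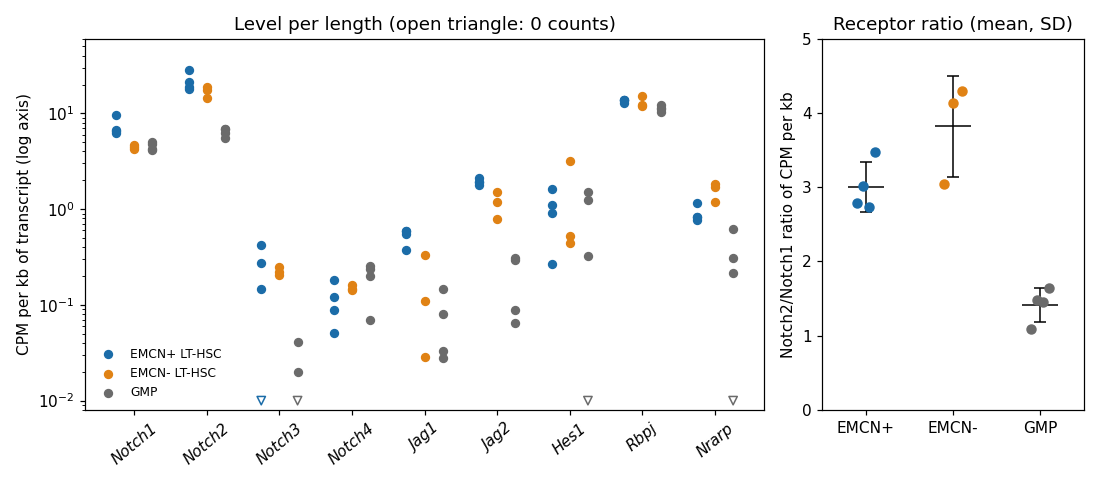
Left, CPM per kb of the longest transcript on a log axis for each gene and library, with open triangles for libraries at 0 counts; right, the Notch2 to Notch1 ratio per kb by library, with mean and SD. Notch2, Rbpj and Notch1 are the 3 most abundant members in each population, and the ratio in GMP (1.10 to 1.64) lies below all LT-HSC libraries.

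Jag1 and Jag2 encode the Jagged ligands, which signal to Notch on a neighbouring cell. Jag1 (chr2:137081456-137116644, minus strand, ENSMUSG00000027276.7) was counted 21, 48, 28 and 17 times in the EMCN+ libraries, 4, 1 and 8 times in the EMCN- libraries and 1, 5, 2 and 1 times in GMP. On the CPM scale this was 2.08, 3.35, 3.12 and 3.32, then 0.612, 0.161 and 1.88, then 0.158, 0.816, 0.455 and 0.187. Every EMCN+ library was above every other library, and EMCN- replicate 4 came closest. The difference between EMCN+ and EMCN- LT-HSC was 1.82 ± 0.70, higher in 3 of 3 mice by 0.74 to 3.03, and did not pass the test (edgeR adjusted p = 0.226). Its size rested on single EMCN- libraries, being 1.29 without replicate 2 and 2.87 without replicate 4 of that group (edgeR adjusted p = 0.498 and 0.112; 0.0873 to 0.553 over the 19 settings). Against GMP, Jag1 was 7.06-fold higher in EMCN+ LT-HSC (2.82 ± 0.69, edgeR adjusted p = 0.00133), while EMCN- LT-HSC differed by 1.00 ± 0.82 (edgeR adjusted p = 0.326), and by -0.05 without EMCN- replicate 4.

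Jag2 (chr12:112907819-112929776, minus strand, ENSMUSG00000002799.6) was the more abundant Jagged ligand in both LT-HSC groups. Its level was 9.73, 9.83, 10.8 and 9.19 CPM in the EMCN+ libraries, 6.12, 7.75 and 3.99 CPM in the EMCN- libraries and 1.58, 0.326, 0.455 and 1.49 CPM in GMP. The 3 populations did not overlap at any point, in the order EMCN+, EMCN-, GMP. It was 9.92-fold higher than in GMP in EMCN+ LT-HSC (3.31 ± 0.39, edgeR adjusted p = 2.39e-07) and 6.04-fold higher in EMCN- LT-HSC (2.59 ± 0.42, edgeR adjusted p = 2.19e-05), in all 20 alternative settings. The difference between the LT-HSC groups, 0.72 ± 0.35, was as large as that of Notch1 but did not pass the test (edgeR adjusted p = 0.363); it was positive in 3 of 3 mice, from 0.33 to 1.15. Per kb, Jag2 stood at 1.94 ± 0.132 CPM in EMCN+ LT-HSC (SD, n = 4), 1.17 ± 0.369 in EMCN- LT-HSC (n = 3) and 0.189 ± 0.130 in GMP (n = 4), and Jag1 at 0.529 ± 0.107, 0.158 ± 0.159 and 0.0720 ± 0.0545.

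Rbpj, the factor through which all 4 receptors reach DNA, differed by at most 1.21-fold between any pair of populations after TMM scaling. It lies at chr5:53466152-53657362 on the plus strand (ENSMUSG00000039191.12). Levels were 69.9, 76.3, 76.2 and 75.8 CPM in the EMCN+ libraries, 64.9, 67.0 and 83.4 CPM in the EMCN- libraries and 67.8, 60.6, 61.7 and 56.5 CPM in GMP. The EMCN+ libraries were all above GMP, by a narrow margin, and the EMCN- libraries overlapped with both. The 1.21-fold difference between EMCN+ LT-HSC and GMP passed the test (0.27 ± 0.11, edgeR adjusted p = 0.0301) but was lost in 8 of 20 alternative settings (dropping replicate 2, 3 or 4 of EMCN+, replicate 2 of EMCN- or replicate 2, 3 or 4 of GMP, and the mouse as a replicate block in complete pairs), with an adjusted p of at most 0.0943. EMCN- LT-HSC differed from GMP by 0.21 ± 0.12 (edgeR adjusted p = 0.127) and from EMCN+ LT-HSC by 0.06 ± 0.11 in the direction of EMCN+ (edgeR adjusted p = 0.889). Plain totals gave 0.94 for EMCN- LT-HSC against GMP (edgeR adjusted p = 1.57e-06; 1.57e-06 to 0.546 over the settings), near the shift of the median gene. Per kb of its longest transcript Rbpj was below Notch2 in both LT-HSC groups (13.6 ± 0.567 CPM, SD, n = 4, and 13.1 ± 1.85 CPM, n = 3) and above it in GMP (11.2 ± 0.852 CPM, n = 4); over the union of its exons, 12750 bases against 5485, it was below Notch2 in GMP as well (4.84 against 6.20 CPM per kb).

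The RBPJ core was in the windows of 1 member, Rbpj itself, with 2 matches, and in 25.6% of all promoter windows. The 30 bases around each match are shown because they are the only matches to the pathway's own DNA-binding factor among the 8 genes with a window. Hes1 had no window and was not searched. The matches lie 149 and 65 bases before the first RefSeq start, at chr5:53590185-53590214 and chr5:53590269-53590298 on the plus strand. The core is in capitals (TTCCCA where it reads on the other strand).
Rbpj, first match: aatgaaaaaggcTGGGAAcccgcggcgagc
Rbpj, second match: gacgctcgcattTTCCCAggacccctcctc
The second also lies in the window of the other RefSeq start of Rbpj. A match to these letters is no evidence of binding.

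Of the 2 target genes, Nrarp was called in both contrasts with GMP and Hes1 in neither. Their fitted differences had the same sign in each comparison, and those of Hes1 were smaller than their SE. Nrarp (chr2:25180758-25183339, plus strand, ENSMUSG00000078202.3) was counted 20, 31, 27 and 11 times in the EMCN+ libraries, 31, 27 and 13 times in the EMCN- libraries and 5, 0, 7 and 3 times in GMP. Its level was 1.99, 2.16, 3.01 and 2.15 CPM, 4.74, 4.36 and 3.05 CPM, and 0.789, 0, 1.59 and 0.560 CPM. It was lowest in GMP, higher in EMCN+ LT-HSC and highest in EMCN- LT-HSC, with no overlap between the 3 groups, though the lowest EMCN- library (3.05 CPM) was just above the highest EMCN+ library (3.01 CPM). It was 5.69-fold higher in EMCN- LT-HSC than in GMP (2.51 ± 0.65, edgeR adjusted p = 0.00262) and 3.26-fold higher in EMCN+ LT-HSC than in GMP (1.70 ± 0.62, edgeR adjusted p = 0.0217). The second call was lost without EMCN+ replicate 3, GMP replicate 2 or GMP replicate 4 (edgeR adjusted p = 0.0507, 0.0524 and 0.0501; 0.000835 to 0.0524 over the settings). Between the LT-HSC groups the difference was -0.80 ± 0.57, lower in EMCN+ cells in 3 of 3 mice by 0.46 to 1.15, and did not pass the test (edgeR adjusted p = 0.58). An antisense gene, Gm38287, shares 2051 of its exon bases and had 0 to 3 counts per library.

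The Nrarp promoter, at chr2:25180508-25180757 on the plus strand, is shown because Nrarp was the member whose EMCN- libraries were all above both other groups. Its GC boxes, which overlap and read on the other strand, are in capitals; neither an RBPJ core nor the other cores searched were found in it.
Nrarp: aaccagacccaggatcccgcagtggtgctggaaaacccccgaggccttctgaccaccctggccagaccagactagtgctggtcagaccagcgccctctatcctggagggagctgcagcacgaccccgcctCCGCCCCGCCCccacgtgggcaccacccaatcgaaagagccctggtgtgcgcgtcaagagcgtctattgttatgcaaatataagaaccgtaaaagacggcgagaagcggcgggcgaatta

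Hes1 (chr16:30064384-30067796, plus strand, ENSMUSG00000022528.8), which encodes the repressor most often read as a Notch target, was near the limit of counting. It had 24, 23, 12 and 2 counts in the EMCN+ libraries, 5, 4 and 20 in the EMCN- libraries and 3, 0, 8 and 12 in GMP, or 2.38, 1.60, 1.34 and 0.391 CPM, 0.765, 0.646 and 4.70 CPM, and 0.473, 0, 1.82 and 2.24 CPM. All 3 groups overlapped, and the highest library, EMCN- replicate 4, stood apart from the other EMCN- libraries. The differences were -0.39 ± 0.87 between the LT-HSC groups, 0.42 ± 0.84 between EMCN+ LT-HSC and GMP, and 0.82 ± 0.92 between EMCN- LT-HSC and GMP (edgeR adjusted p = 0.904, 0.685 and 0.486). Without EMCN- replicate 4 the first became 1.04 and the third -0.62, each with its sign turned.

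**Figure D3:**
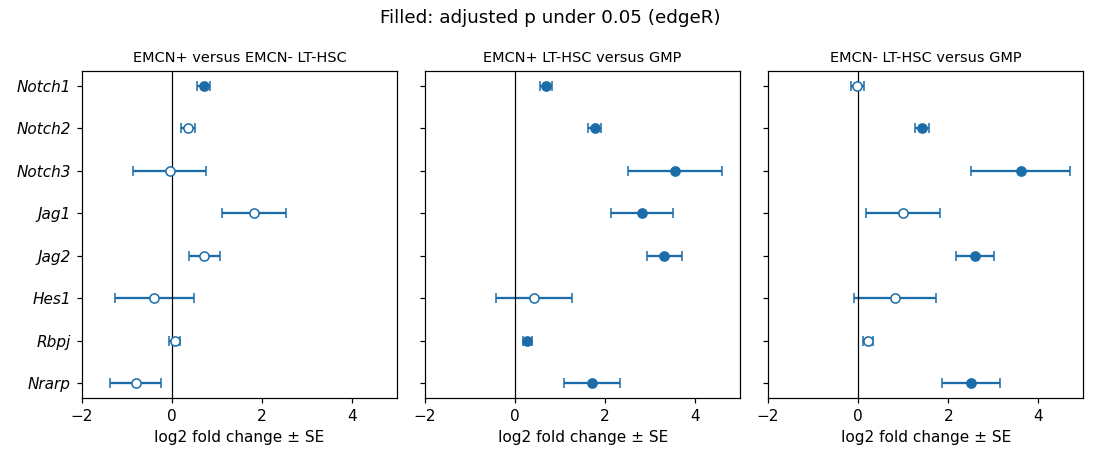
Log2 fold change ± SE of the 8 tested members in the 3 comparisons from edgeR; filled points have an adjusted p under 0.05. Filled points are Notch1 alone in the first panel, all but Hes1 in the second, and Notch2, Notch3, Jag2 and Nrarp in the third.

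Beyond these members, a list of 94 further pathway genes was examined, of which 93 were in the table and 75 passed the filter. Between EMCN+ and EMCN- LT-HSC, 1 was called higher and 0 lower (1.33% called, where 1.96% of all genes were; median difference 0.14). Against GMP, 45 were called higher and 14 lower in EMCN+ LT-HSC (78.7% called, where 61.3% of all genes were; median 0.47), and 40 higher and 10 lower in EMCN- LT-HSC (66.7% called, where 52.7% were; median 0.46). The median over all genes tested was 0, 0.04 and 0.03. On plain totals the lower calls went to 0 in every list but that of ubiquitin ligases and trafficking, which kept 1 in each contrast (Dtx4), and that of T cell and other targets, which kept 1 for EMCN- LT-HSC.

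Efnb2 was the gene of these lists called between the LT-HSC groups, where it was higher in EMCN+ cells. It encodes ephrin-B2, a membrane ligand of arterial endothelium that Notch is reported to induce. Its level was 13.1, 13.3, 18.2 and 12.5 CPM in the EMCN+ libraries, 4.44, 4.68 and 5.17 CPM in the EMCN- libraries and 0, 0.326, 0 and 0.373 CPM in GMP. The 3 populations did not overlap. The difference between the LT-HSC groups was 1.59 ± 0.32 (edgeR adjusted p = 0.0114), and 0.0855 was its highest adjusted p over 20 settings, reached without EMCN- replicate 1. The endothelial markers Cdh5 and Cldn5 were at 0.558 to 0.993 and 0.695 to 2.35 CPM in the EMCN+ libraries, at most 0.306 and 0 CPM in the EMCN- libraries and 0 in GMP, whereas Pecam1, Flt1 and Plvap of the same list were lowest in the mean of the EMCN+ libraries, as given above.

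Of the other ligands, 8 of 9 were in the table and 3 passed the filter. All 3 were called higher in both LT-HSC groups than in GMP, where 31.9% and 28.3% of all genes were. Dll4 and Dlk1 had no counts in GMP and passed the filter through LT-HSC libraries, so their higher calls were partly set by the filter. Egfl7, a secreted protein that binds Notch, was at 32.8 ± 3.65 CPM in EMCN+ LT-HSC (SD, n = 4), 27.4 ± 6.60 in EMCN- LT-HSC (n = 3) and 7.26 ± 2.32 in GMP (n = 4). Dll4, the Delta ligand of endothelium, had 33, 23, 20 and 5 counts in the EMCN+ libraries, 4, 5 and 6 in the EMCN- libraries and 0 in GMP. Against a floor of 3 counts over the GMP group, Dll4 was at least 15.6-fold higher in EMCN+ LT-HSC and at least 6.54-fold higher in EMCN- LT-HSC. Dlk1, an imprinted and non-canonical member of the family, was also at 0 in GMP and at least 20.6-fold and 5.67-fold higher. Neither was called between the LT-HSC groups (1.15 ± 0.70 and 1.80 ± 0.68, edgeR adjusted p = 0.504 and 0.218). Dll1 was below the filter with 29 counts over the EMCN+ libraries, 2 over the EMCN- libraries and 0 over GMP.

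Fringes are sugar transferases that change which ligands a Notch receptor answers. Of 11 genes of receptor glycosylation, 5 were called higher and 2 lower in EMCN+ LT-HSC than in GMP. In EMCN- LT-HSC 5 were higher and 1 was lower. These shares are near those over all genes, of which 61.3% and 52.7% were called. Lfng was at 23.4, 23.3, 32.2 and 25.2 CPM in the EMCN+ libraries, 18.4, 19.9 and 14.3 CPM in the EMCN- libraries and 2.05, 2.45, 3.41 and 1.68 CPM in GMP, with differences from GMP of 3.45 ± 0.23 and 2.89 ± 0.24 (edgeR adjusted p = 3.78e-11 and 2.76e-09). Mfng, the second fringe, was at 41.1 ± 4.39, 33.4 ± 7.26 and 8.43 ± 2.71 CPM. Neither was called between the LT-HSC groups, with Lfng at 0.56 ± 0.20 (edgeR adjusted p = 0.179). Gxylt1, which adds xylose, fell by 0.68 and 0.81 against GMP; on plain totals it was not called.

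Of the 10 genes for enzymes that cut the receptors, 4 were called higher and 3 lower than in GMP in each LT-HSC group. Over all genes, 61.3% were called for EMCN+ and 52.7% for EMCN- LT-HSC. Furin, which cuts the precursor, was at 71.9 ± 7.26, 54.8 ± 7.01 and 34.7 ± 5.41 CPM in the EMCN+, EMCN- and GMP libraries (SD, n = 4, 3 and 4). Adam10, the protease that cuts after ligand binding, was at 178 ± 7.90, 175 ± 12.3 and 107 ± 8.01 CPM. The gamma-secretase subunit Aph1b was at 6.74 ± 1.23, 6.36 ± 1.21 and 1.25 ± 0.526 CPM.

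Of the 13 tested genes of ubiquitin ligases and trafficking, 9 were higher and 1 was lower in EMCN+ LT-HSC than in GMP. In EMCN- LT-HSC the counts were 7 and 1, where 61.3% and 52.7% of all genes were called in these contrasts. The lower gene was Dtx4, a Deltex ubiquitin ligase, at 1.56 ± 0.515 CPM in EMCN+ LT-HSC, 0.950 ± 0.594 in EMCN- LT-HSC and 83.2 ± 9.57 in GMP (SD, n = 4, 3 and 4). It stayed called on plain totals. Neurl3 went the other way, at 71.8 ± 8.73, 52.1 ± 2.37 and 11.7 ± 3.19 CPM.

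Among 10 RBPJ co-activators, 6 were higher and 2 lower in EMCN+ LT-HSC than in GMP, and 6 and 1 in EMCN- LT-HSC. For this list and the co-repressors below, the shares called over all genes were 61.3% and 52.7%. Maml2, a Mastermind protein that holds the active complex together, was at 54.0 ± 5.84 CPM in EMCN+ LT-HSC, 42.2 ± 2.20 in EMCN- LT-HSC and 2.48 ± 0.861 in GMP (SD, n = 4, 3 and 4), a difference from GMP of 4.42 ± 0.18 and 4.06 ± 0.19 (edgeR adjusted p = 3.85e-14 and 6.36e-13). Of 18 co-repressors, 11 were higher and 3 lower in EMCN+ LT-HSC, and 9 and 2 in EMCN- LT-HSC. Tle2, a Groucho-type co-repressor, was at 17.0 ± 2.04, 12.3 ± 0.264 and 0.845 ± 0.412 CPM. Fhl1 had 486 counts over EMCN+ LT-HSC, 191 over EMCN- LT-HSC and 0 in GMP, which is at least 93.5-fold and 83.3-fold higher against the floor.

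Of the 8 other HES and HEY genes, 1 passed the filter. This was Hes6, at 9.39 ± 2.56 CPM in EMCN+ LT-HSC, 8.42 ± 0.326 in EMCN- LT-HSC and 15.5 ± 3.26 in GMP (SD, n = 4, 3 and 4), with differences from GMP of -0.73 ± 0.22 and -0.88 ± 0.25 (edgeR adjusted p = 0.00674 and 0.00495) that were not called on plain totals. Hes6 is an atypical member that opposes HES1. Hey1 had 1 count over all EMCN+ libraries and 0 elsewhere, Hey2 1 count in EMCN+ LT-HSC and 1 in GMP, and Hes5 21, 7 and 4 counts over the 3 groups.

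The last list held 14 reported targets of T cells and other tissues, with 9 tested. In EMCN+ LT-HSC 7 were higher and 2 lower than in GMP, and in EMCN- LT-HSC 6 and 1. All genes had 61.3% and 52.7% called in these contrasts. Gata3, a factor of T cells that stem cells also express, had 782 counts over EMCN+ LT-HSC, 298 over EMCN- LT-HSC and 2 over GMP, with ratios of counts to GMP of 226 (95% counting interval 62.2 to 1866) and 195 (53.5 to 1617). Of the 12 T cell markers, Cd3e was at 0 in all libraries, while the 3 that passed the filter were called higher than in GMP in both LT-HSC groups: Lck by 2.28 and 2.32, Cd4 by 1.46 and 2.17, and Cd247, with 1 count in GMP, at ratios of counts of 93.5 (95% counting interval 16.5 to 3714) and 44.5 (7.46 to 1808) (edgeR adjusted p of at most 0.0469, the value of Cd4 in EMCN+ LT-HSC, a call that 11 of 19 alternative settings lost). Cd247 passed the filter through LT-HSC libraries, so its higher calls were partly set by the filter. The remaining T cell markers did not pass and were not tested. The sum of the 12 was 10.2 to 16.4, 10.9 to 13.4 and 2.28 to 4.29 CPM. Nfkb2 was at 22.5 ± 5.72, 20.2 ± 2.75 and 7.26 ± 1.06 CPM and Igf1r at 230 ± 43.4, 177 ± 21.7 and 117 ± 10.7 CPM (SD, n = 4, 3 and 4). Ptcra, a classic T cell target of Notch1, had 4, 9 and 34 counts over the 3 groups. Several of these genes answer to other pathways as well, so their levels are not a readout of Notch.

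**Figure D4:**
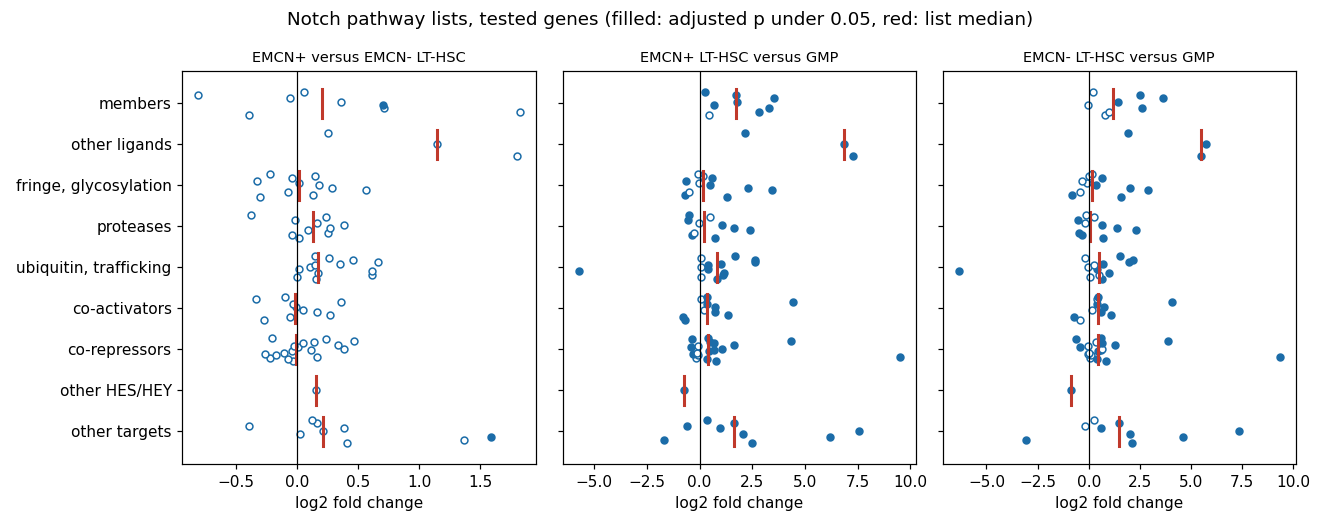
Log2 fold changes of the tested genes of each pathway list in the 3 comparisons, 1 point per gene, filled where the edgeR adjusted p is under 0.05, with the list median as a red bar; horizontal scales differ between panels. Only Notch1 and Efnb2 are filled in the first panel, while filled points lie on both sides of 0 in the other 2, for example Maml2 (4.42) and Dtx4 (-5.75) in the second.

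The genes whose pattern across libraries was most like that of each member were found among 9925 named genes with a mean of at least 5 CPM, by Pearson correlation of log2 CPM; these are descriptions over libraries that share mice and scaling. Over all 11 libraries, Notch2 was closest to Zbtb20 (r = 0.996), Rnf213 (0.993) and Zmynd8 (0.992), and Jag2 to Pgghg (0.990), Tinagl1 (0.985) and Adgrd1 (0.985). Notch1, which did not separate EMCN- LT-HSC from GMP, was closest to Gpalpp1 (0.929), Arhgap31 (0.899) and Fam234a (0.884), and Nrarp to Gramd4 (0.955), Dbp (0.942) and Ptpn12 (0.936). Over the 7 LT-HSC libraries alone, Notch1 was closest to Aplp2 (0.988), Col4a1 (0.981) and Plxna1 (0.977), and Notch2 to Adgrg1 (0.981), Zbtb20 (0.979) and Alcam (0.978). Zbtb20 was the 1 gene that stood among the 3 nearest to Notch2 in both sets. For the other members the nearest genes over all 11 libraries were Smarcc1 for Notch3 (0.949), Tceanc2 for Jag1 (0.927), Dok1 for Rbpj (0.926) and Emid1 for Hes1 (0.865).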

How the data were processed

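RNA from 11 sorted libraries was sequenced as paired ends after the SMARTer stranded total RNA pico kit, per the labels' protocols, although the labels name polyA RNA as the molecule. The authors deposited 1 table of estimated counts per gene, all whole numbers; cutadapt and Salmon are named, without versions, per the submitters' processing notes, and the genome build, annotation and strand setting are not given in the sources used here. The table's gene IDs were matched without version to GENCODE M21 (54094 of 54347 found), which gave coordinates and lengths. Values were rounded as a safeguard, and all 11 columns were used (0 left out).

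Groups came from the sample titles. Genes with too few counts were removed with edgeR's filterByExpr (minimum count 10, by group), which kept 14915 genes holding 99.7% of counts; 21223 genes were at 0 in all libraries. Differences were tested with edgeR 4.0.16 (TMM scaling, robust quasi-likelihood fit of all 11 libraries, group only) in R 4.3.3, adjusted over all genes tested. DESeq2 1.42.0, limma-voom (limma 3.58.1), other filters and scalings, the mouse as a replicate block and leaving out each library were the alternatives. The procedure was tested on simulated data. The precision is set by the counts of each gene: 3 counts in a library stood for 0.209 to 0.705 CPM.

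Libraries with the same number come from the same mouse, per the labels, so the numbers pair the samples. As a check, deviations from the group means correlated between EMCN+ and EMCN- libraries of the same mouse by 0.165 to 0.223 over 3 pairs, and between different mice by -0.246 to 0.190. EMCN- with GMP gave 0.105 to 0.150 in the same mouse and -0.168 to 0.0623 in different mice. EMCN+ with GMP gave -0.0606 to 0.0613 and -0.172 to 0.161. The check therefore cannot show the pairing of EMCN+ with GMP libraries, which rests on the labels. No pair of replicates was the same within sampling noise.

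Named genes were all 9 members and, in each other pathway list, up to 4 called genes with the smallest p per comparison (up to 2 where none was called), plus the 3 genes most correlated with each member. Dll1, Hey1, Hey2, Hes5, Ptcra, Cdh5, Cldn5, Sox17, Pecam1, Flt1, Plvap, Cd3e, the other marker genes and the overlapping genes were named after their values were seen. Some genes that this rule names are not reported here. The members and lists were chosen with earlier results of these data known.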

Additional observations from a re-analysis of the deposited data

Results flagged for a closer look

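In 2 of 20 groups of 4 libraries examined, 1 library stood apart from the other 3 by Dixon's criterion, which chance does in about 1 of 20 groups. Notch1 stood at 90.2 CPM in EMCN+ replicate 2, the deepest library, and at 58.6 to 63.8 CPM in the other 3. Rbpj stood at 69.9 CPM in EMCN+ replicate 1 and at 75.8 to 76.3 CPM in the other 3.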

How the results depend on the processing

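Of 462 differences of single members recomputed over 20 alternative settings, 428 kept their direction and their side of the threshold, 15 lost the call, 2 gained it and 17 changed sign. Between EMCN+ and EMCN- LT-HSC, 293 genes were called, against 529 without the filter on low counts and 451 with DESeq2, and 55 to 338 when 1 library was left out. With the mouse as a replicate block in complete pairs 908 genes and 2 members (Notch1 and Notch2) were called, and with the block over all 11 libraries 374 genes and 1 member; leaving out 1 library left 0 or 1 member. Against GMP, a minimum of 5 CPM in 3 libraries kept 4 members called in EMCN+ LT-HSC and 2 in EMCN- LT-HSC, since fewer were tested, while leaving out 1 library gave 5 to 7 and 4 to 4; genes called then were 8521 to 9331 and 7212 to 7861.

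The 17 changed signs were as follows. Between the LT-HSC groups, Notch3 became 0.073 on plain totals, 0.22 and 0.28 with the replicate block (all libraries, complete pairs), and 0.36, 0.075 and 0.023 without EMCN+ replicate 3, EMCN+ replicate 4 and EMCN- replicate 1 (-0.67 to 0.36 leaving out 1 library). Hes1 became 0.19 with limma-voom, 0.10 and 0.016 with the block, and 1.04 without EMCN- replicate 4 (-0.83 to 1.04). Rbpj became -0.0097 without EMCN- replicate 1 (-0.0097 to 0.18). For EMCN+ LT-HSC against GMP, Hes1 became -0.013 without GMP replicate 2 (-0.013 to 1.04). For EMCN- LT-HSC against GMP, Notch1 became 0.70 on plain totals, 0.011 with the block in complete pairs and 0.022 without GMP replicate 1 (-0.070 to 0.022). Jag1 became -0.048 (-0.048 to 1.63) and Hes1 -0.62 (-0.62 to 1.43) without EMCN- replicate 4. The block in complete pairs ended the call of Rbpj between EMCN+ LT-HSC and GMP and, as above, added Notch2 between the LT-HSC groups; no other call of a member changed with the block. The cause of these changes was not tested. Low counts limit the precision for Notch3, Notch4, Hes1, Nrarp, Jag1 and, in GMP, Jag2.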
